A study of Homo sapiens with 7 samples.

Results

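Accessible chromatin was examined at 8 human genes of the synaptic vesicle and its SNARE fusion machinery: SYN1, SYN2, SYP, SNAP25, SYT1, STX1A, VAMP2 and SV2A. The genes were chosen by name, with earlier results of these data known, out of 19974 protein-coding genes on chromosomes 1 to 22 and X. Each locus was taken as the gene body with 50 kb on either side. All 8 genes had a position in the gene table and accessible regions in every library. The deposited lists held 129, 158, 66 and 61 regions at the 8 loci in stressed libraries 6, 7, 8 and 9, against 51, 41 and 107 in vehicle libraries 6, 7 and 8.

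Open chromatin was mapped by ATAC-seq, where Tn5 transposase inserts adapters into accessible DNA, in wild-type LUHMES cells. LUHMES is an established human mesencephalic line, clonal and immortalised with a v-myc transgene that tetracycline switches off, and all samples were differentiated for 6 days with 1 mM dbcAMP, 2 ng/mL GDNF and 1 µg/mL tetracycline. The 4 stressed libraries received antimycin A at 25 µM and oligomycin at 10 µM for 8 h, which block respiratory complex III and the mitochondrial ATP synthase, and carry differentiation numbers 6 to 9. The 3 vehicle libraries received DMSO and carry numbers 6 to 8.

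A nerve terminal stores transmitter in vesicles that synapsins tether to one another and to actin. Fusion with the plasma membrane is driven by a SNARE complex of VAMP2 on the vesicle with STX1A and SNAP25 on the target membrane, and SYT1 is the calcium sensor that times it. SYP and SV2A are abundant proteins of the vesicle membrane, and SYP is a standard marker of presynaptic terminals. Several genes of this group, SYN1 among them, are known targets of REST, a repressor that binds the RE1 element and silences neuronal genes in other cell types.

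Promoter sequences matched 7 of the 8 genes in the RefSeq table (GRCh38.p14, the hg38 assembly), all but SNAP25. Sequences of 5 genes are shown, since they fall into the contrast on which the results turn: SYN1, SYP and SYT1 had an accessible start in every library, while STX1A and VAMP2 had GC-rich sequence at a start that was seldom among the stronger regions. Each line gives the 250 bases upstream of a listed transcription start, 5′ to 3′ on the coding strand. Capitals mark matches, on either strand, to GGGCGG (an Sp/KLF box, read as CCGCCC on the other strand), CCAAT (read as ATTGG), TGACGTCA (the cAMP response element) and both parts of the RE1 element, a left part TTCAGCACC and a right part of GGACAG, any base and GCC.
SYN1 (chrX:47619858-47620107, minus strand): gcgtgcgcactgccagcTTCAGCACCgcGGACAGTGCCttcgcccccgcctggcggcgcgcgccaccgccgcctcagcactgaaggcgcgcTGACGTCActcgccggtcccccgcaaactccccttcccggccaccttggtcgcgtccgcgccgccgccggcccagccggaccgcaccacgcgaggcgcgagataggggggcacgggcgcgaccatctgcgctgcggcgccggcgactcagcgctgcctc
SYP (chrX:49200194-49200443, minus strand): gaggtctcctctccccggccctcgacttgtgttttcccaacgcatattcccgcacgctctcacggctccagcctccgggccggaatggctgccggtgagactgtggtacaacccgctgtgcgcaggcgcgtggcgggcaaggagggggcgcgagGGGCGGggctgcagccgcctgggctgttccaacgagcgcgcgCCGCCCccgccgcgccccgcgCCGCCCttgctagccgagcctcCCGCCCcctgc
SYT1 (chr12:78864524-78864773, plus strand): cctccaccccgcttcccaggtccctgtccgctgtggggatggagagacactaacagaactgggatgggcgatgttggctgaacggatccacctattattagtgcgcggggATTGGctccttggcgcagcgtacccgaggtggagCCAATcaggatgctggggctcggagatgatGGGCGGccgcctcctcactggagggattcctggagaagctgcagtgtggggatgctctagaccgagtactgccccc
STX1A (chr7:73719670-73719919, minus strand): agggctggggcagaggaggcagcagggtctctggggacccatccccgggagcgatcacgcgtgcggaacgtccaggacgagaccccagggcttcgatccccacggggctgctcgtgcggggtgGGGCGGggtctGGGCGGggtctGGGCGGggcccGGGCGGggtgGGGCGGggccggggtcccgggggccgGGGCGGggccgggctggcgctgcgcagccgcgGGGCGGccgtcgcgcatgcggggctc
VAMP2 (chr17:8162949-8163198, minus strand): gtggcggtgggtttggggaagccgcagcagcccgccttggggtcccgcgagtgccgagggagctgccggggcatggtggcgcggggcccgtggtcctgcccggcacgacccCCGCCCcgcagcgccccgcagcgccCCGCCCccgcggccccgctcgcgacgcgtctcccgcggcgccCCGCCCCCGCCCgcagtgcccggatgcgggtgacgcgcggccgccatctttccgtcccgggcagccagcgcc

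The SYN1 sequence held both RE1 parts, 2 bases apart, starting 233 and 222 bases upstream of the start. Of 22132 promoters in the table, each 300 bases long with 50 of them downstream of the start, 0.352% held the left part, 0.872% the right part and 3 (0.0136%) both parts spaced by 2 or 3 bases. SYN1 also held a cAMP response element 159 bases upstream, a motif found in 2.26% of promoters. Sp/KLF boxes, found in 56.3% of promoters, numbered 7 at STX1A, 4 at SYP, 4 at VAMP2 and 1 at SYT1, and adjoining boxes at VAMP2 are printed as 1 run of capitals. CCAAT boxes, found in 34.6% of promoters, occurred only at SYT1 among the 5, once on each strand. TATAAA (9.46% of promoters) and CACGTG (8.34%) were searched too and had no match in the promoters of the 7 genes. GC content of the whole table entry was 80.7% at VAMP2, 79.3% at STX1A, 75.3% at SYN1, 71.3% at SYP and 62.0% at SYT1, against a median of 62.3% over all promoters. These matches describe the sequence and show nothing of which factors were bound.

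Peaks had been called by the authors in each library on its own, and the deposited lists held 53063 to 248900 regions in stressed libraries and 32828 to 159902 in vehicle libraries. Every list was therefore reduced to its 32828 regions of highest −log10 p, the length of the shortest list. Within that equal-size list each region was given the percentile of its fold enrichment, with 100 as the strongest and 0 for a gene that had no region there. A region was called a gene-end region when it came within 1000 bp of either end of the gene, and a distal region when it lay elsewhere in the locus. Stressed libraries 6 and 7 and vehicle library 8 had the long lists, and read depth is unknown. In a bulk culture, fewer cells with an open site and less opening per cell cannot be told apart.

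The neuronal label was held against markers. In the equal-size lists, gene-end regions were found at 5 of 12 dopaminergic markers in every library, but not at the same 5. NR4A2, PITX3 and EN1 were open in all 7, and TH, SLC18A2, DDC, LMX1B and ALDH1A1 in none. The rest were SLC6A3 and KCNJ6, except in vehicle library 6, where they were LMX1A and FOXA2. The deposited lists held a region for SLC18A2 in 4 stressed libraries and 1 vehicle library, and for TH in 3 stressed and 0 vehicle libraries. For DDC and for LMX1B they held one in 1 stressed and 0 vehicle libraries, and for ALDH1A1 in none. In the equal-size lists again, of 7 markers of any neuron, 6 were open in each stressed library and 3 to 6 in vehicle libraries, and RBFOX3 was open in none. Markers of other cells were open as well. Of 6 progenitor and dividing-cell markers, 5 to 6 were open in stressed and 2 to 6 in vehicle libraries, and of 7 glial markers 2 to 5 in stressed and 1 to 4 in vehicle libraries. Of 7 mesenchymal and endothelial markers, 3 to 4 were open in stressed and 1 to 2 in vehicle libraries, without overlap. Counts over all 19974 genes did not overlap either, at 12082 to 12979 in stressed and 10776 to 11772 in vehicle libraries. OLIG2 (glia), TWIST1 (mesenchymal) and TOP2A (dividing cells) were open in all 7. Their mean percentiles were 84.0, 76.6 and 60.1 in stressed and 73.7, 79.9 and 63.4 in vehicle libraries. GFAP, S100B, COL1A2, PECAM1 and CDH5 were at 0 in all 7 equal-size lists. The part of these markers in the differences given next was not tested.

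The starts of SNAP25 and SYT1 were the most accessible of the 8 in every library, those of SYN1 and SYP were intermediate, and those of SYN2, SV2A, VAMP2 and STX1A were weak or missing. Over all 7 libraries the start percentile averaged 88.7 ± 4.32 at SYT1, 87.5 ± 3.76 at SNAP25, 60.1 ± 9.11 at SYP, 59.5 ± 8.55 at SYN1, 36.0 ± 23.5 at SYN2, 15.3 ± 18.7 at SV2A, 5.60 ± 14.0 at VAMP2 and 0.278 ± 0.736 at STX1A (SD, n = 7). Within that order only the step down from the SYT1 and SNAP25 pair to SYP exceeded the spread of both neighbours. A gene-end region was present in all 7 equal-size lists at 4 of the 8, namely SYN1, SYP, SNAP25 and SYT1, against 46.5% of all genes.

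**Figure D1:**
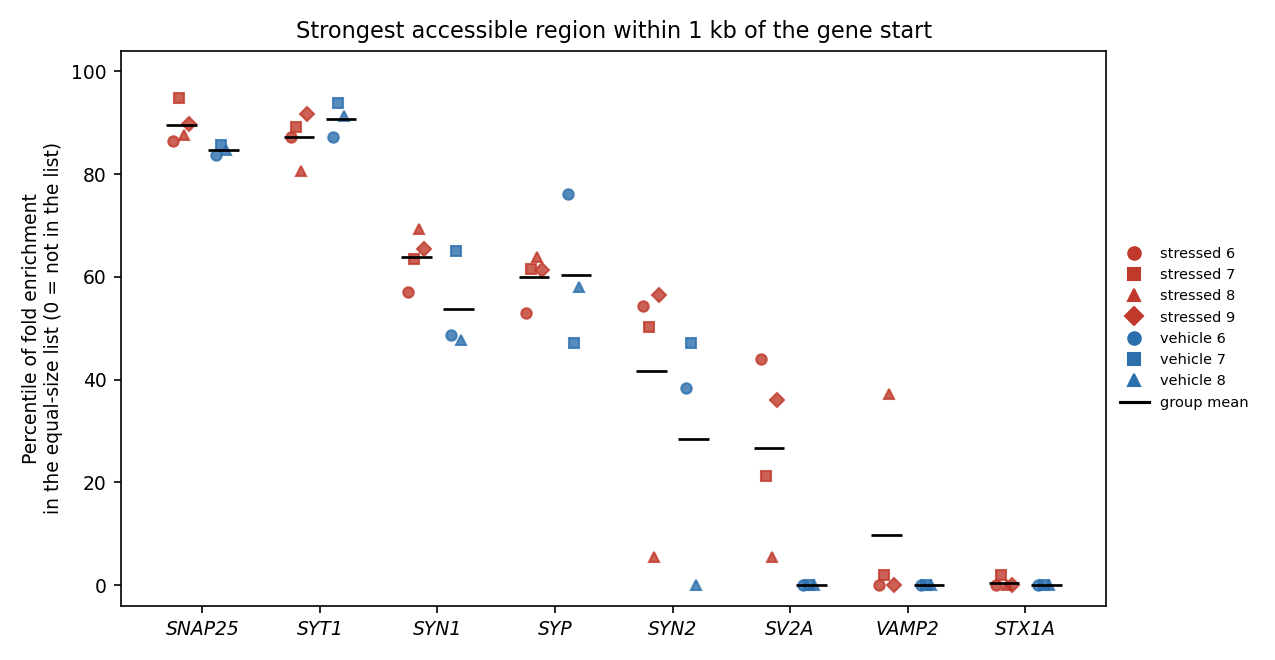
Percentile of fold enrichment (vertical axis, 0 to 100, with 0 for no region) of the strongest region within 1000 bp of the start of each gene in the equal-size lists, with stressed libraries (red) left of vehicle libraries (blue), 1 symbol per differentiation number and black lines for group means. SNAP25 and SYT1 lie above 80 in all 7 libraries, and SV2A is above 0 in the 4 stressed libraries alone. The start of SNAP25 is taken as the end of lower coordinate, its textbook start.

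More of the 8 genes were open at an end in stressed libraries. The equal-size lists held a gene-end region for 7, 8, 7 and 8 of the genes in stressed libraries 6 to 9, against 5, 6 and 5 in vehicle libraries 6 to 8, a mean of 7.5 ± 0.577 (SD, n = 4) against 5.33 ± 0.577 (SD, n = 3). The same held over all 19974 genes, of which 12295, 12979, 12082 and 12499 had a gene-end region in stressed and 10776, 11064 and 11772 in vehicle libraries. A larger share of stressed libraries had the region at 4 genes (SYN2, STX1A, VAMP2 and SV2A, a set named after its values were seen, against 19.3% of all genes), and a larger share of vehicle libraries at 0 (against 4.56%). For STX1A that share was 3 of 4 against 2 of 3. With the deposited lists the difference in number of open genes was 1.08 in place of 2.17.

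The percentile at the strongest gene-end region was next compared over libraries. Every stressed library lay above every vehicle library at 2 of the 8 genes, SNAP25 and SV2A, against 6.79% of all genes, and every stressed library lay below at 0 of the 8, against 1.11% of all genes. The exact permutation test over the 35 assignments of the 7 labels, two-sided, can give no p below 0.0286. After Benjamini-Hochberg adjustment over all 19974 genes, 0 genes passed 0.05, and none of the 8 had an unadjusted exact p of 0.05 or less, as 5.15% of all genes did. The median difference over the 8 genes was 8.91 percentile points, beside 4.17 over the 14055 genes that had one or more libraries with such a region, so a shift upward was general. Among those 14055 genes, which include all 8, every stressed library lay above at 9.65% and below at 1.57%, and 7.31% had an unadjusted exact p of 0.05 or less. The sign was positive at 5 of the 8 and at 70.9% of those genes.

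SNAP25, the plasma-membrane SNARE that botulinum toxin A cleaves, stood at percentile 86.5, 94.8, 87.5 and 89.7 in stressed libraries 6 to 9, against 83.8, 85.7 and 84.6 in vehicle libraries 6 to 8. The percentiles of the groups did not overlap, but the gap between the lowest stressed and the highest vehicle library was small beside the spread among stressed libraries. The mean was 89.6 ± 3.70 in stressed and 84.7 ± 0.985 in vehicle libraries, a difference of 4.93 points (exact permutation p = 0.0571, adjusted p = 0.661, n = 4 and 3). In ranks among the 32828 regions, its start held place 4391, 1694, 3799 and 3203 in stressed libraries and 5010, 4282 and 4962 in vehicle libraries. By place the groups overlapped, with vehicle 7 ahead of stressed 6. Tied regions were given the best place of the tie here and the mean rank in the percentile. The separation at SNAP25 therefore depended on how ties were ranked. With the deposited lists the groups overlapped, at 97.6, 99.3, 92.6 and 93.6 in stressed and 90.0, 85.7 and 96.8 in vehicle libraries (exact permutation p = 0.229).

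The SNAP25 locus (chr20:10218830-10307418) also held distal regions. A region 46.3 kb upstream (chr20:10171065-10173918) was present in all 7 equal-size lists, at 69.9, 83.1, 80.5 and 79.5 in stressed and 68.2, 83.1 and 63.0 in vehicle libraries. That region overlapped the listed promoter of LOC105372524. A region 22.5 kb downstream of the start (chr20:10239573-10243044), inside the gene, stood at 23.9, 40.8, 48.6 and 36.1 in stressed and 24.3, 4.08 and 2.39 in vehicle libraries (exact permutation p = 0.0857). Stressed library 6 was the one stressed library that did not exceed all vehicle libraries there. No region came within 1000 bp of the far end of SNAP25 in any deposited list.

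SV2A, the vesicle glycoprotein that the antiepileptic drug levetiracetam binds, was the one gene of the 8 with a start region in all stressed and no vehicle equal-size list, a pattern seen at 0.576% of all genes. Its start (chr1:149916546-149918372) stood at percentile 44.1, 21.3, 5.40 and 36.1 in stressed libraries 6 to 9, and was outside the list in vehicle libraries 6 to 8. The mean was 26.7 ± 17.1 in stressed libraries and 0 in vehicle libraries (exact permutation p = 0.0571, adjusted p = 0.661, n = 4 and 3). PDGFRB, a mesenchymal marker, showed the same presence in stressed lists alone, at 20.7, 50.3, 37.3 and 44.2.

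The absence in vehicle libraries was an absence from the stronger regions and not from all regions. In the deposited lists the SV2A start was present in 4 stressed and 2 vehicle libraries. Its fold enrichments were 13.2, 7.1, 4.4 and 5.6 in stressed libraries 6 to 9, and 4.0 in vehicle 6 and 8.2 in vehicle 8. Libraries of unlike depth are comparable by rank only, so these folds were not compared. The percentiles of the SV2A start in the deposited lists were 90.3, 89.6, 38.7 and 60.5 in stressed and 22.1, 0 and 77.1 in vehicle libraries, so that stressed libraries 8 and 9 lay below vehicle 8 (exact permutation p = 0.229). Among only the strongest 16414 regions it was absent from every library. Around SV2A, a region at the histone genes H2AC20, H2AC21 and H2BC21, 31.0 kb downstream, stood at 81.5, 84.2, 87.5 and 79.5 in stressed and 81.6, 75.9 and 90.0 in vehicle libraries, well above the start of SV2A in all 7. The promoter that the RefSeq table lists for SV2A (chr1:149906992-149907241) lies inside the gene, had a GC content of 37.3% and had no region within 1000 bp in any deposited list.

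**Figure D2:**
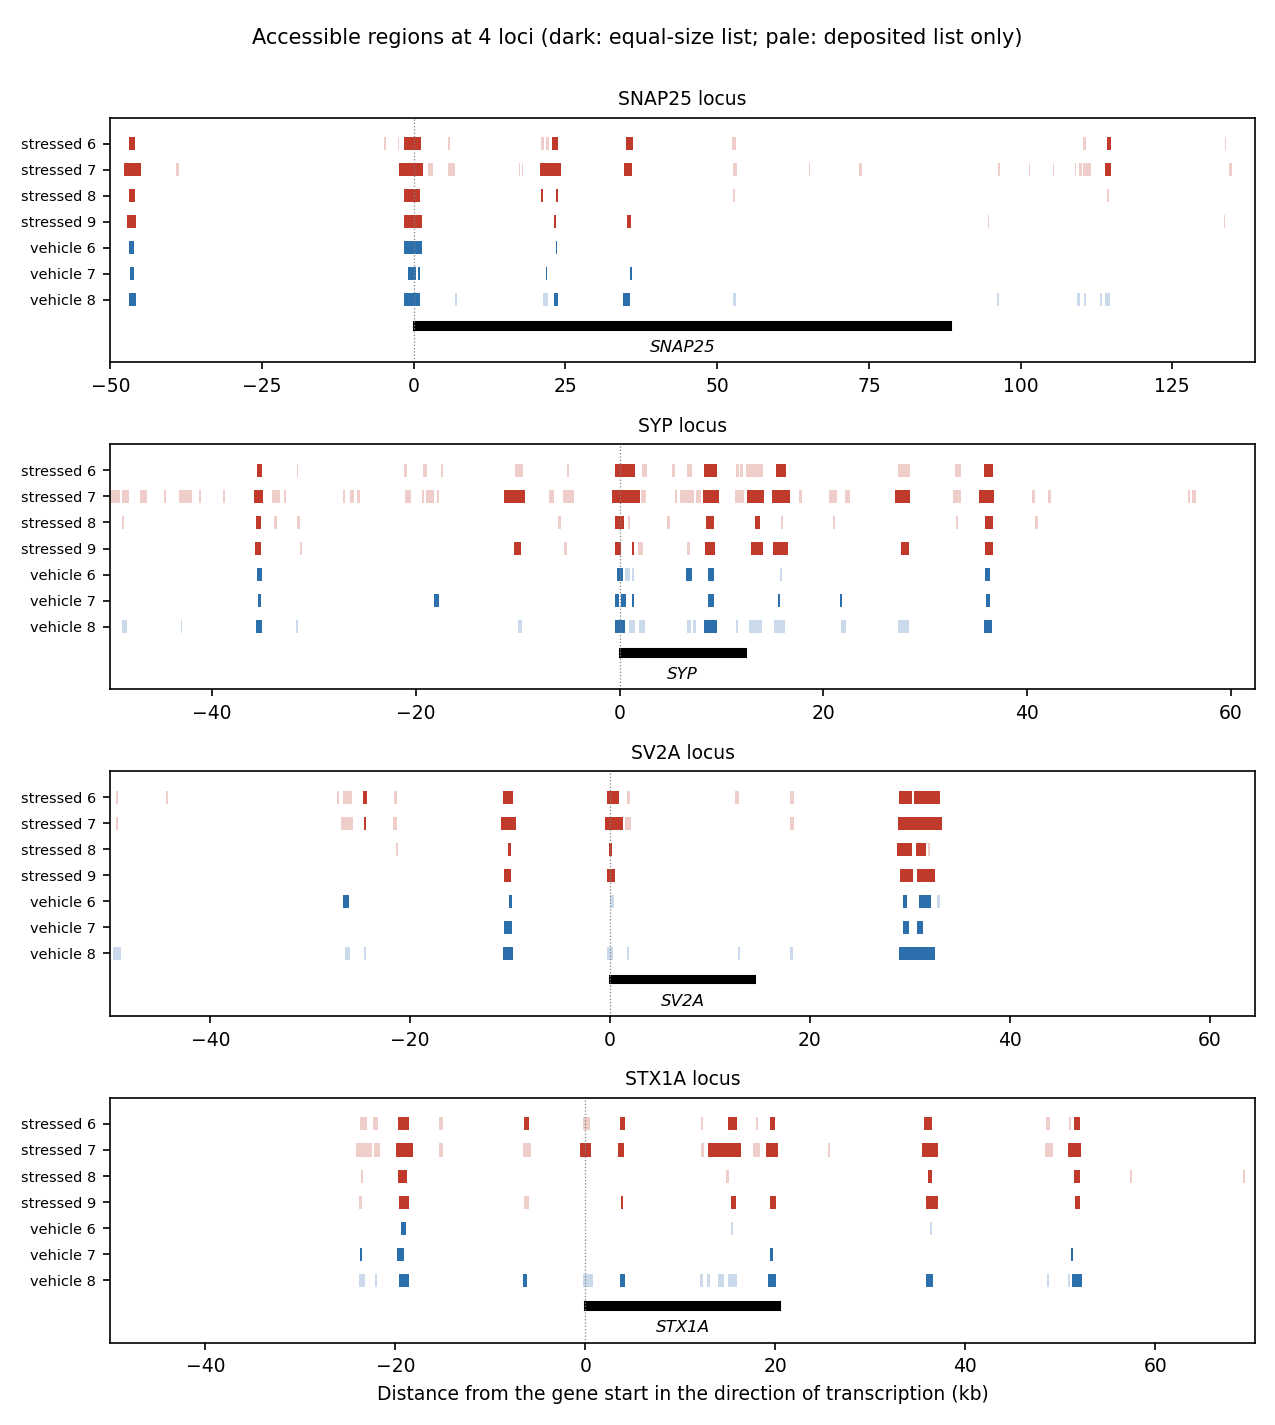
Accessible regions at 4 loci by distance from the gene start in kb (horizontal axis, positive in the direction of transcription), with 1 row per library, stressed (red) above vehicle (blue), dark for the equal-size list and pale for regions in the deposited list alone; black bars are the gene bodies. The SV2A start is dark in 4 stressed libraries and in 0 vehicle libraries, pale in vehicle libraries 6 and 8, and SYP has a dark block 8.99 kb inside the gene in all 7.

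SYT1 had one of the strongest starts of the 8 genes in both groups. Its percentile was 87.2, 89.2, 80.5 and 91.6 in stressed and 87.2, 93.8 and 91.3 in vehicle libraries. The groups overlapped, with a mean of 87.1 ± 4.76 in stressed and 90.8 ± 3.30 in vehicle libraries, a difference of -3.63 points (exact permutation p = 0.371). The gene is long (chr12:78863982-79452008) and its 688027 bp locus held few other regions of the equal-size lists, with distal counts of 1, 0, 0 and 0 in stressed and 1, 0 and 2 in vehicle libraries. None of its 3 distal regions was shared by more than 2 libraries. The VAMP2 locus, of 103802 bp, held 8, 8, 12 and 8 distal regions of those lists in stressed and 8, 9 and 8 in vehicle libraries. After merging over libraries, 7 of the 11 distal regions at VAMP2 lay at the end of another protein-coding gene, against 0 of 3 at SYT1. In the deposited lists, with gene-end regions included, the SYT1 locus held 12, 15, 1 and 3 regions in stressed and 6, 1 and 14 in vehicle libraries. The VAMP2 locus held 25, 16, 18 and 15 in stressed and 10, 9 and 18 in vehicle libraries, so the counts came close in stressed 7.

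The other SNARE partners differed from SNAP25 at their starts. The start of STX1A, syntaxin of the presynaptic membrane, was in the equal-size list of stressed library 7 alone, at 1.95, and in the deposited lists of stressed libraries 6 and 7 and vehicle library 8, at 70.9, 87.1 and 77.1. Those are the libraries with the long lists, and no short list held it. The region that carried STX1A in the gene-end comparison lay at the far end of the gene instead (chr7:73699364-73700706), at 52.9, 25.7, 0 and 50.9 in stressed and 0, 57.3 and 56.2 in vehicle libraries. The far-end values overlapped, and the gene-end mean was 32.4 ± 24.9 in stressed and 37.8 ± 32.8 in vehicle libraries (exact permutation p = 0.714).

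The start of VAMP2, the vesicle SNARE, stood at 0, 1.95, 37.3 and 0 in stressed and at 0 in all 3 vehicle libraries. With the far end included, which added 44.2 in stressed library 9, the mean was 20.8 ± 23.1 in stressed and 0 in vehicle libraries (exact permutation p = 0.257). In the deposited lists a start region of VAMP2 was present in 4 of 4 stressed libraries, at 68.5, 87.1, 62.9 and 23.8, against 1 of 3 vehicle libraries, at 47.7 in vehicle 8. With the strongest region at either end of the gene, the deposited lists gave a difference of 55.1 points with no overlap (exact permutation p = 0.0286), as 0.776% of all genes lay above and 0% below in those lists. The VAMP2 call therefore differed between the equal-size and the deposited lists.

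SYN1, which tethers vesicles in the reserve pool, had an accessible start in every library. The region at the promoter printed above (chrX:47618817-47620868) stood at 57.1, 63.4, 69.2 and 65.5 in stressed and 48.7, 64.9 and 47.7 in vehicle libraries. Vehicle 7 lay among the stressed libraries, and the mean was 63.8 ± 5.08 in stressed and 53.8 ± 9.69 in vehicle libraries (exact permutation p = 0.171). At its far end a region shared with the end of ARAF was in the list of stressed library 8 alone, at 80.5.

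SYN2, a second synapsin, had a weaker and more variable start (chr3:12003377-12004934). It stood at 54.3, 50.3, 5.40 and 56.5 in stressed and 38.4, 47.1 and 0 in vehicle libraries. The mean was 41.6 ± 24.3 in stressed and 28.5 ± 25.1 in vehicle libraries (exact permutation p = 0.457). Without vehicle 8 the sign turned, to -1.13. Vehicle 8 did have the region in its deposited list, at percentile 77.1. A region 9.01 kb upstream (chr3:11994996-11995762) ran the other way, at 47.8, 18.9, 20.8 and 0 in stressed and 48.7, 71.0 and 42.5 in vehicle libraries, with an overlap between stressed 6 and vehicle 8 (exact permutation p = 0.0857).

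At SYP the start was not the most accessible site of the gene. The start region (chrX:49198204-49200950) stood at 52.9, 61.4, 63.9 and 61.3 in stressed and 76.1, 47.1 and 58.0 in vehicle libraries, a mean of 59.9 ± 4.80 against 60.4 ± 14.6 (exact permutation p = 0.971). A region within the gene, 8.99 kb downstream of the start (chrX:49190410-49192003), stood at 94.99, 94.2, 91.9 and 90.7 in stressed and 93.3, 96.1 and 97.3 in vehicle libraries. It was stronger than the start in all 7 libraries, was not within 1000 bp of the end of any protein-coding gene, and the groups overlapped (exact permutation p = 0.171). Likewise at VAMP2, a region 6.29 kb past the start and beyond the far end of the gene (chr17:8155890-8157426) stood at 85.04, 90.2, 73.6 and 79.5 in stressed and 79.1, 85.7 and 89.0 in vehicle libraries, while the start was mostly at 0.

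Width was compared as the widest gene-end region over the median gene-end width of its library, since that median was 773 to 1881 bp in stressed and 538 to 1342 bp in vehicle libraries. It could be compared at the 4 genes with a region in every library. At the start of SYP the widest region spanned 1965, 2747, 836 and 509 bp in stressed and 624, 468 and 1044 bp in vehicle libraries, or 1.43, 1.46, 1.08 and 0.451 times the library's median in stressed and 0.783, 0.870 and 0.778 times in vehicle libraries. In the equal-size lists the merged SYP start region was split into 2 separate calls in stressed 9 and 3 in vehicle 7. It was 1 call in each other library, so the widths of those 2 libraries are of the widest piece alone. Stressed 6, 7 and 8 lay above all vehicle libraries and stressed 9 below them, so the groups overlapped, with a difference of 0.31 on the log2 scale (exact permutation p = 0.600). When the far end of the gene was counted too, stressed 9 was represented by a region of 1117 bp shared with the end of PRICKLE3, which was in the equal-size list of no vehicle library. With that other region in place of the start the groups did not overlap, and the difference was 0.60 (exact permutation p = 0.0571, adjusted p = 0.806 over 9284 genes). Of those 9284 genes, with either end counted, 2.68% were wider in every stressed than in every vehicle library, 2.40% were narrower in every stressed library, 3.35% had an unadjusted exact p of 0.05 or less and 0 passed an adjusted p of 0.05.

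SNAP25 and SYT1 had wide regions in both groups. The SNAP25 region spanned 2807, 4031, 2555 and 3004 bp in stressed and 3001, 1291 and 2696 bp in vehicle libraries, at least 2.01 times the library's median in all 7. The SYT1 region spanned 2338, 2322, 2021 and 2476 bp in stressed and 1114, 1598 and 2371 bp in vehicle libraries. The SYN1 region spanned 1000, 1675, 787 and 652 bp in stressed and 401, 328 and 1504 bp in vehicle libraries. The merged start region was split into 2 calls at SNAP25 in vehicle 7 and at SYT1 in vehicle 6, where the width is of the widest piece alone. Relative to the library's median, the groups overlapped at each of these 3 genes. The differences of relative width were -0.08 at SNAP25, -0.06 at SYT1 and 0.17 at SYN1 on the log2 scale, with exact permutation p of 0.771, 0.857 and 0.657.

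**Figure D3:**
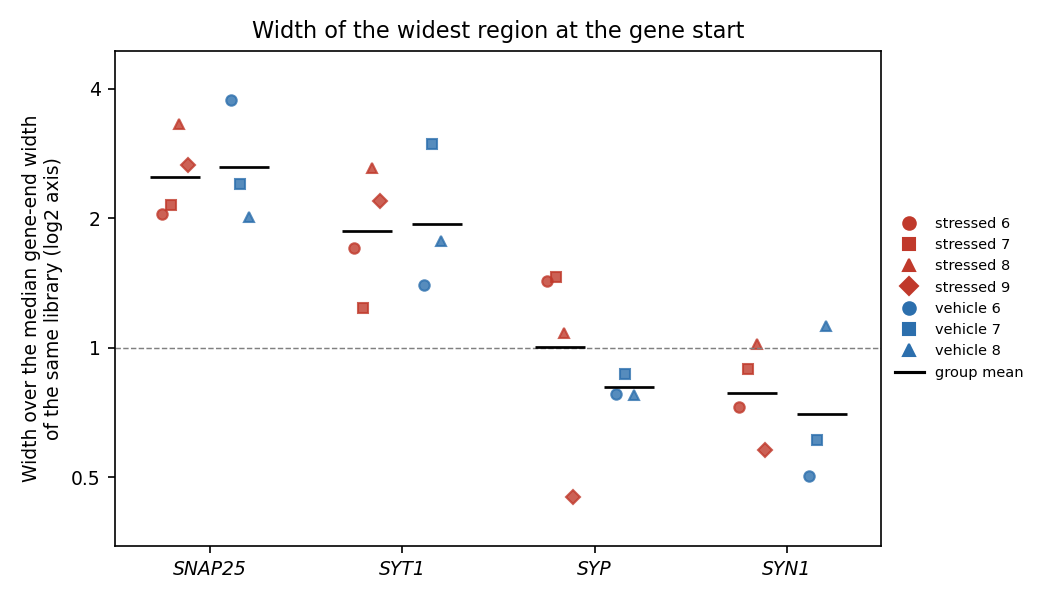
Width of the widest region at the gene start over the median gene-end width of the same library (log2 axis, dashed line at 1) at the 4 genes with a start region in all 7 equal-size lists, stressed (red) left of vehicle (blue), with black lines for geometric means. SYP spans 0.451 to 1.46 in stressed and 0.778 to 0.870 in vehicle libraries, with stressed 9 the lowest, and SNAP25 lies at or above 2.01 in every library.

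Over the 8 loci the equal-size lists merged into 64 regions, of which 12 lay at an end of the gene, 15 within it and 37 in the flanks. Of the 52 distal regions, 20 lay at the end of another protein-coding gene, so much of the accessible flank belonged to neighbours. A region was present in all 7 libraries at 20 of 64, against 22.9% of 62507 regions over the genome. The number of distal regions per locus gave exact permutation p from 0.286 at SNAP25 to 1 at SYN2, VAMP2 and SV2A, and its groups overlapped at all 8 genes, against 2.76% of all genes higher and 0.826% lower in every stressed library. An unadjusted exact p of 0.05 or less was reached at 2.79% of all genes, and 0 passed the adjustment.

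Of the 64 regions, 6 were higher in every stressed than in every vehicle library, against 3.86% genome-wide, and 1 was lower, against 2.74%. One region, at the SV2A start, was in all stressed and no vehicle lists, against 0.781% genome-wide. No region of the genome passed an adjusted p of 0.05, and 3.98% had an unadjusted exact p of 0.05 or less. The 6 were the starts of SNAP25 and SV2A, a region at MAGIX near SYP and 3 regions near STX1A. The STX1A neighbours were a region inside VPS37D at 26.8, 31.6, 20.8 and 44.2 in stressed and 0, 4.08 and 12.9 in vehicle libraries (exact permutation p = 0.0286), one at BUD23 and DNAJC30 at 26.8, 55.0, 63.9 and 36.1 against 0, 0 and 12.9, and one at ABHD11 at 57.1, 69.0, 83.3 and 79.5 against 56.8, 33.4 and 52.2 (exact permutation p = 0.0571 for both). None of these 3 lay at an end of STX1A itself.

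The region lower in every stressed library lay at the ends of ELK1 and UXT, 30.7 kb upstream of SYN1 (chrX:47649267-47651773). It stood at 89.7, 90.8, 87.5 and 91.6 in stressed and 97.6, 94.7 and 94.4 in vehicle libraries (exact permutation p = 0.0286). ELK1 encodes a transcription factor of the serum response, and the region was strong in both groups. Metalloproteinase inhibitor genes that lie within synapsin introns were also accessible: TIMP1 inside SYN1 at 47.8, 23.5, 0 and 36.1 in stressed and 0, 0 and 56.2 in vehicle libraries, and TIMP4 inside SYN2 at 44.1, 56.8, 48.6 and 3.17 in stressed and 24.3, 0 and 12.9 in vehicle libraries. Both pairs of groups overlapped.

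A wider list of 67 other genes of vesicle release was read in the same way. Every stressed library lay above every vehicle library at 11 of 67 and below at 1, beside 6.79% and 1.11% of all genes, and 39 had a gene-end region in all 7 libraries (58.2%, beside 46.5% of all genes). The lowest adjusted p in the list was 0.555, so none passed. With the deposited lists the count was 1 above and 0 below, where 0.776% of all genes lay above and 0% below. The median difference was 4.31 points over all 67, and 5.16 over the 59 that had a region in one or more libraries, beside 4.17 over all such genes.

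By role, 4 of 11 other SNARE genes lay above, among them SNAP29 by 17.1 points, STX2 by 11.8 and STX4 by 4.31. SNAP29 stood at 73.8, 81.6, 93.1 and 72.1 in stressed and 63.1, 57.3 and 68.6 in vehicle libraries. Among 10 genes of the release machinery, 2 lay above: NAPA, which encodes alpha-SNAP, the adaptor that recruits NSF to take SNARE complexes apart, and STXBP5, which encodes tomosyn. NAPA stood at 75.2, 85.03, 93.1 and 81.4 in stressed and 24.3, 57.3 and 64.5 in vehicle libraries, a difference of 34.97 points (exact permutation p = 0.0286, adjusted p = 0.555). That was the largest difference of means among the 11.

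Of 8 calcium sensor genes, 1 lay above, SYT5, by 21.2 points. Of 15 genes of the vesicle membrane, 2 did: SV2B, the paralogue of SV2A, at 34.999, 42.2, 20.8 and 26.1 in stressed and 0, 16.8 and 0 in vehicle libraries, and SCAMP1, by 13.7 points. The SV2B difference was 25.4 points (exact permutation p = 0.0286, adjusted p = 0.555). SV2C, the remaining SV2 gene, had no gene-end region in any deposited list.

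All 9 active-zone genes had a gene-end region in all 7 libraries, and 1 of them, PPFIA3, a liprin-alpha scaffold gene, lay above, by 18.9 points. Of 14 genes of endocytosis and recycling, 1 lay above and 1 below. SYNJ1, whose phosphoinositide phosphatase is needed to shed clathrin coats, stood at 90.7, 91.4, 91.9 and 91.6 in stressed and 76.1, 88.0 and 80.1 in vehicle libraries (exact permutation p = 0.0286, adjusted p = 0.555). AP2M1, a subunit of the AP-2 clathrin adaptor, stood at 73.1, 69.0, 48.6 and 56.5 in stressed and 85.6, 89.7 and 79.4 in vehicle libraries, a difference of -23.1 points (exact permutation p = 0.0571, adjusted p = 0.661). The equal-size lists held no gene-end region for 8 of the 67 in any library, namely SNAP47, VAMP7, NSF, SYT9, SYNGR2, SYNPR, SV2C and RPH3A.

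**Figure D4:**
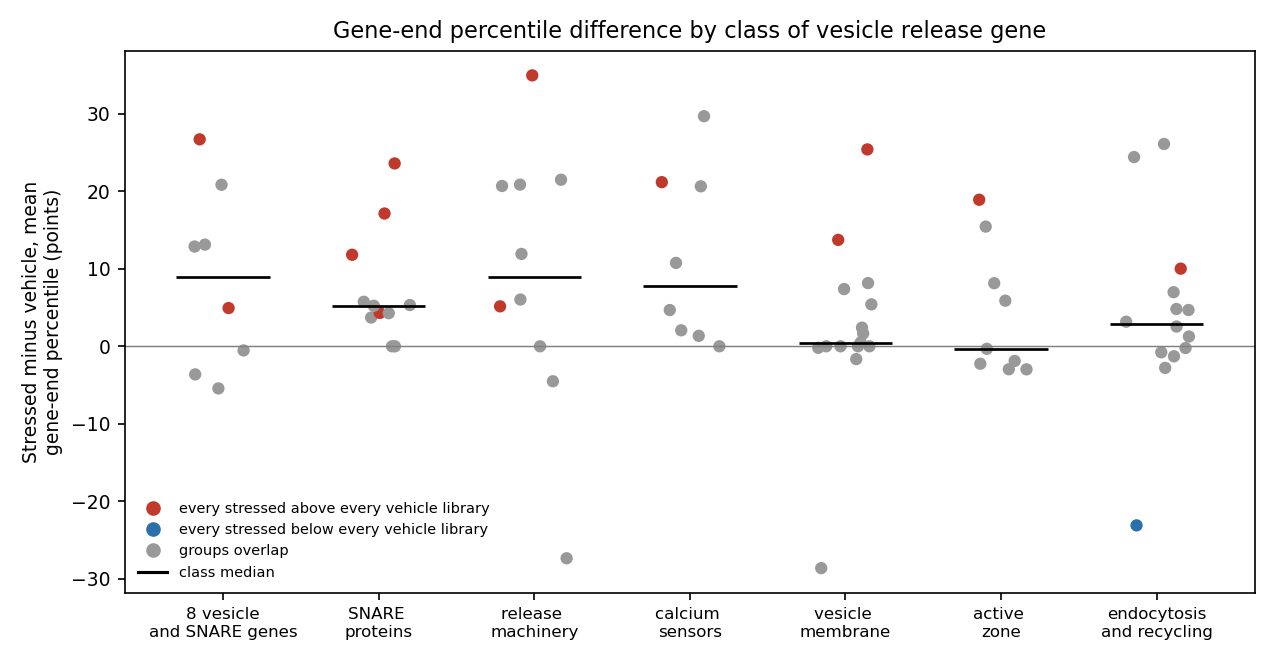
Difference of mean gene-end percentile, stressed minus vehicle, in percentile points, for each of the 8 genes and for 6 classes of the wider list, with 1 dot per gene and black lines for class medians. Red dots are genes with every stressed above every vehicle library (2 of the 8, 11 of the 67), the blue dot is AP2M1 at -23.1, and grey dots have overlapping groups.

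The gene of the wider list with the most similar gene-end percentiles over the 7 libraries was found for 7 of the 8, and that of SYN2 is not given. The mean absolute difference was 2.51 points between SNAP25 and STX4, 3.19 between SYT1 and PPFIA2, 5.16 between VAMP2 and SYT7 and 7.70 between SYP and ERC1. It was 9.11 between SV2A and DOC2B, 9.58 between STX1A and SCAMP5 and 10.7 between SYN1 and ERC1. The 7 libraries behind these values share the size of the equal-size list, and their deposited lists differ in length.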

How the data were processed

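ATAC-seq peak lists of 4 stressed and 3 vehicle LUHMES libraries were analysed, each peak called with MACS2 within 1 library and not on pooled samples, per the file headers. The submitters' processing notes name FastQC, Bowtie2, Picard and hg38. Settings and versions of aligner and caller, any shift for the Tn5 offset and read depth were not given in the sources used here. Caller settings would change the width and number of regions. DNA was amplified in 2 rounds of 9 PCR cycles, per the labels' protocols. The deposited lists give, for each peak, a score, a fold enrichment (a ratio), a −log10 p-value and a −log10 q-value, all computed by the authors' caller. They served for ranks and filters inside a single list. Fold enrichments are printed at the SV2A start alone, and libraries were compared by rank only.

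Regions off chromosomes 1 to 22 and X, 29 to 54 per library, were dropped. Equal-size lists held the 32828 regions of highest −log10 p, and percentiles of fold used the mean rank of ties. The lowest −log10 p kept was 5.63 to 21.0 in stressed and 4.37 to 18.2 in vehicle libraries. Gene ends came from the RefSeq table of GRCh38.p14, and strands from its promoter entries. Regions of all libraries that overlapped by at least 1 bp were merged for the region counts. Coordinates are 1-based.

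Groups came from the labels. Library values were compared with an exact permutation test, two-sided, adjusted by Benjamini-Hochberg over all genes or regions. Differentiation numbers separate the cultures of 1 clonal line, so p-values measure the spread between these cultures. Named genes were the 8 genes, wider-list genes whose groups did not overlap or that had no region, the wider-list gene most like each of the 8, and genes at the ends of described regions. Some values that this rule names are not reported here. The 8 genes, the wider list and the marker lists were chosen with earlier results of these data known. Alternatives were other list sizes, windows, overlap rules and rankings, leaving out each library and, added after the data were seen, width at the gene start alone. Overlap functions were tested on simulated data and against bedtools 2.31.1. Python 3.11.15, numpy 2.4.6, pandas 2.3.3, scipy 1.17.1 and matplotlib 3.10.9 were used.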

Additional observations from a re-analysis of the deposited data

Results flagged for a closer look

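In 4 measurements 1 stressed library stood far from the other 3 by Dixon's criterion at 95%, which chance exceeds in about 1 of 20 groups. The 16 percentiles and distal counts of the 8 genes were examined. The SYN2 gene-end percentile was 5.40 in stressed 8, against 50.3 to 56.5 in the other stressed libraries. The number of distal regions at VAMP2 was 12 in stressed 8, against 8 in each of the others. Stressed 6 had 1 distal region at SYT1, against 0 in the others, and 4 at SV2A, against 3 in the others. The last pair are differences of 1 region each. In all the distal counts flagged, the other stressed libraries were equal. A difference of any size then passes the criterion, so the rate of 1 in 20 does not hold for them.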

How the results depend on the processing

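Library depth and list length limit these results, since an absent region may be one too weak to be called, and 3 vehicle libraries allow no exact p below 0.0286. The number of the 8 genes higher in every stressed library, 2 as reported, was 1 with the deposited lists, with lists of 16414 regions, with −log10 q of at least 5 and with at least 50% of the region in the window, and 2 to 3 without 1 library. With the deposited lists the 1 gene was VAMP2, and the groups overlapped at SNAP25 and SV2A. Of the wider list, 11 as reported, the number was 1 with the deposited lists and 12 to 15 without 1 library. Of all genes, 1356 as reported (221 lower), it was 155 (0 lower) with the deposited lists, 881 (203 lower) with −log10 q of at least 5, and 1477 to 2326 without 1 library, where it was 2196 without stressed 6, 2093 without stressed 8, 2315 without vehicle 7 and 2326 without vehicle 8. Such counts rise by construction with fewer libraries. The difference in the number of open genes, 2.17 as reported, was 1.08 with the deposited lists, 1.58 with 16414 regions, 0.833 with −log10 q of at least 5, 1.42 with a window of 2500 bp, and 2.0 to 2.5 without 1 library. It was 2.5 in the 3 long lists and 2.0 in the 4 short ones. Some signs turned, also at larger differences such as those of VAMP2 (20.8 as reported) and SYN2 (13.1). For percentiles, deposited lists gave 10.7 at SYP, 0.200 at SYT1 and 13.5 at STX1A. A window of 2500 bp gave -2.50 at VAMP2, where it took in the stronger region beyond the far end (chr17:8155890-8157426). That value is the difference at this other region. At least 50% of the region in the window gave -18.8 at SNAP25, where wide regions fail by construction. Without 1 library the percentile difference ran from -1.13 to 25.2 at SYN2, -7.18 to 7.32 at SYP and -24.3 to 5.36 at STX1A. For log2 relative width, deposited lists, lists of 16414 regions and −log10 q of at least 5 gave 0.035, 0.012 and 0.017 at SNAP25 and 0.051, 0.029 and 0.034 at SYT1. Without 1 library it ran from -0.073 to 0.50 at SYN1, -0.27 to 0.18 at SNAP25 and -0.30 to 0.25 at SYT1. For distal counts, deposited lists gave 7.5 at SYN1 and 1.08 at SYT1, and leaving out 1 library gave -0.5 to 1.5 at SYP, -0.333 to 1 at VAMP2 and -0.25 to 0.75 at SV2A. Apart from the constructions named, the cause was not tested. The SYN2 percentile difference was 52.3 in the long lists and -11.8 in the short ones. Of 319 values for single genes under alternatives, 252 kept the sign of a reported difference, 36 had the opposite sign, 15 showed no difference and 16 belong to a reported difference of 0; 1 (VAMP2 with deposited lists) passed the threshold. Ranking by −log10 p gave the same order as ranking by fold and so tested nothing. Width at the gene start alone, added after the data were seen, was 0.31 at SYP in place of 0.60. The replicate block, pairing numbers 6 to 8, gave a difference of 2.0 open genes and turned the SYP distal count to -0.333, with no exact p below 0.25 possible. Same-numbered libraries correlated at -0.0392, 0.00862 and -0.0916 in their deviations from group means, and the labels tie no number to a shared batch. Counts of genes without overlap were not run for the block or for long or short lists alone.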
